A study of Mus musculus with 12 samples.

Results

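The comparison described here set primary mouse aortic smooth muscle cells (SMCs), which form the muscle layer of arteries, in conditioned medium of naive macrophages against the same kind of cells in regular growth medium. Its members are 8 of the 12 libraries of the series, 4 for each medium, taken by their sample titles, and the comparison was made over all 16140 genes that passed a filter on low counts. Naive conditioned medium (naive CM) came from unstimulated bone marrow-derived macrophages, which had been washed in buffer and then kept for 24 hours in fresh DMEM with 0.3% fetal bovine serum, 10 ng/mL of the macrophage growth factor M-CSF, penicillin and streptomycin. SMCs were held in DMEM with 0.3% serum and the same antibiotics for 48 hours and then kept in the conditioned medium for 24 hours. The remaining 4 libraries are of SMCs in medium from macrophages that had received interferon gamma and lipopolysaccharide (IFNγ/LPS CM), and they serve below as a further level only. The sources used here give neither the serum content of regular growth medium nor the genotype, age and sex of the mice or the passage of the cells, and they do not say whether cells in regular medium were first starved. Macrophage products, M-CSF, serum content and prior starvation therefore cannot be told apart in this comparison, and no group of cells in starvation medium without macrophage products is among the libraries.

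Differentiated SMCs express a contractile gene set under serum response factor and its partner myocardin, and in culture they lose much of it, make matrix and can divide. Dividing cells switch on replication genes through E2F factors at the start of S phase and mitotic genes, through MuvB-type complexes and FOXM1, in G2. Macrophages in the artery wall secrete growth factors, proteases and cytokines, and after interferon or bacterial products they secrete far more inflammatory mediators.

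Library totals ranged from 28097496 to 61493375 estimated counts in regular medium and from 28542613 to 56323683 in naive CM. Correlations of log2 CPM were 0.9885 to 0.9926 within regular medium, 0.9898 to 0.993 within naive CM and 0.9803 to 0.9876 between the media, where CPM are counts per 1000000 of a library's total after TMM scaling. The first principal component, with 40.9% of the variance, separated the media, and the next, with 14.8%, placed regular medium replicate 4 (score -33.7) and naive CM replicate 3 (-20.7) on one side of the other 6 libraries (0.716 to 15.6). The cells held the smooth muscle actin gene Acta2 at 280.1 ± 29.9 CPM in regular medium (SD, n = 4), whereas the late contractile markers Myh11 and Cnn1 were below 1 CPM in every library. CPM are not divided by transcript length, so levels are compared below only within a gene. Libraries are titled as biological replicates, but no label says that each came from its own animal or culture, so p-values measure only the spread between these libraries.

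Between the media, 5594 of 16140 genes differed at an adjusted p of 0.05 (edgeR quasi-likelihood F-test, Benjamini-Hochberg), or 34.7% of the genes tested. Of these, 2949 (18.3% of genes tested) were higher in naive CM and 2645 (16.4%) were lower. Most differences were small: 4217 of the 5594, or 75.4%, were below 1.5-fold. At 2-fold or more the balance was different, where 617 genes (3.82%) differed, with 464 higher (2.87% of genes tested) and 153 lower (0.948%). At 4-fold or more, 66 genes were higher and 12 lower. The libraries of the 2 media did not overlap for 5278 genes (32.7%). Genes of the mitosis, replication and histone lists made up 75 of the 464 genes that were at least 2-fold higher (16.2%) and 0 of the 153 that were at least 2-fold lower. The plot of fold change against level sets the mitosis and replication genes against all others.

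**Figure D1:**
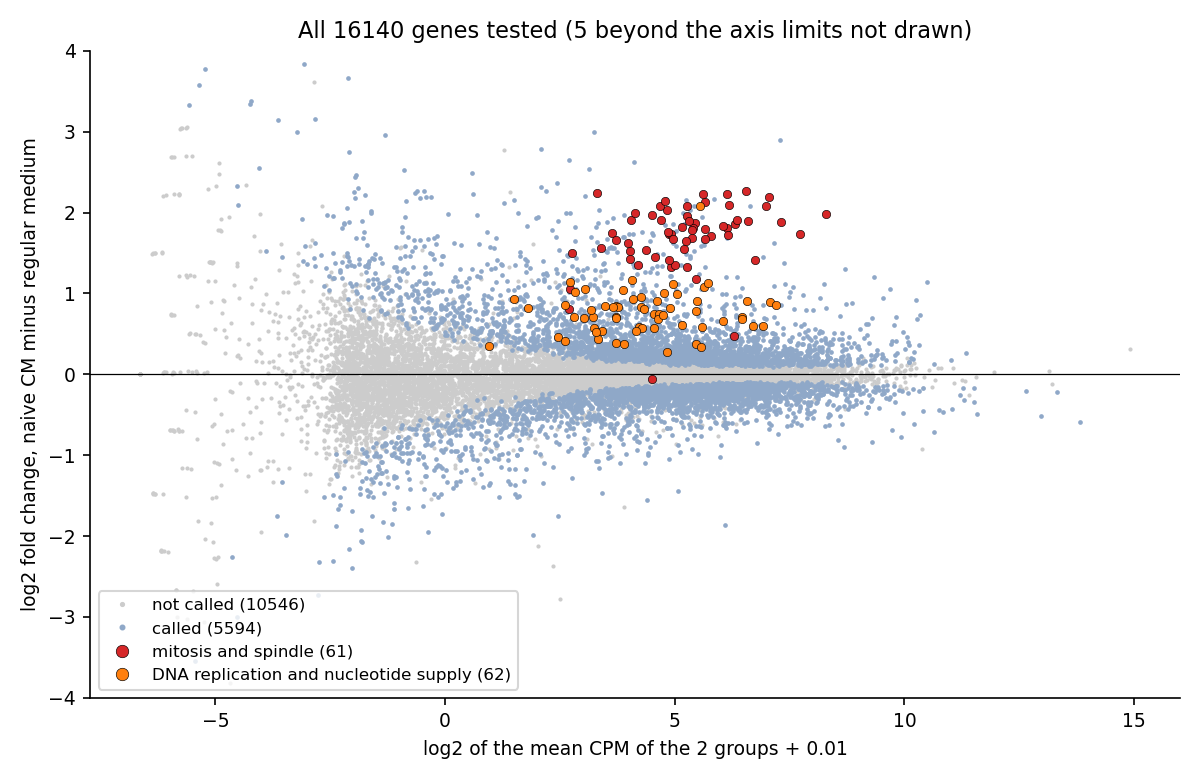
Log2 fold change, naive CM minus regular medium, against mean level in log2 CPM for the 16140 genes tested, with called genes and the genes of the mitosis and replication lists marked by colour. Of the genes changed at least 2-fold, 464 lie above zero and 153 below it.

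Of the 44 gene lists examined, the mitotic genes had the largest median fold change. List counts here and below stand beside 18.3% higher and 16.4% lower over all genes tested. All but 1 of the 61 tested genes of mitosis and the spindle, that is 60, were higher in naive CM and 0 were lower. The median log2 fold change was 1.76 against -0.02 over all genes. At least 2-fold higher were 58 of them. The member that was not called was Pttg1, the anaphase inhibitor securin, with a log2 fold change of -0.06; it was singled out after its values were seen. Summed over the list, the level was 1296 to 1635 CPM in regular medium, 4743 to 4981 in naive CM, against 772 to 991 in IFNγ/LPS CM, so the media did not overlap and naive CM held the highest sum. In bulk RNA, a larger share of cells in division and more of these transcripts per cell cannot be told apart.

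The proliferation marker Mki67 (chr7:135689784-135716361 on GRCm38), a coat protein of mitotic chromosomes, was at 76.8, 63.5, 63.3 and 67.5 CPM in regular medium replicates 1 to 4 and at 253, 232, 259.8 and 252 in naive CM replicates 1 to 4. Every naive CM library was above every regular medium library, by 3.67-fold between fitted means (log2 fold change of 1.88 with an SE of 0.129, edgeR adjusted p = 1.41e-06). Cenpf (chr1:189640606-189688086), which binds kinetochores, was at 34.9, 31, 30.5 and 32.6 CPM in regular medium and at 156, 154, 153 and 158 in naive CM. It was 4.8-fold higher, with little spread within either medium. Cdc20, the activator of the anaphase-promoting complex, was at 19.3, 13.4, 16.1 and 20.3 CPM against 75, 78.4, 85.9 and 83.3, without overlap, and was 4.67-fold higher. Aspm, a spindle pole protein, was at 25.7, 23.7, 24 and 25.4 CPM against 114, 116, 117 and 116 and was 4.68-fold higher. Cdc25c, the phosphatase that activates the mitotic kinase, was 4.72-fold higher at 16.3 ± 2.38 against 3.42 ± 0.702 CPM. In IFNγ/LPS CM these 5 genes were lower than in either of the other media, for example Mki67 at 27.5 ± 6.26 CPM.

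Many upstream sequences of mitotic genes hold a CCAAT box, a cell cycle homology region or both. Below are the 200 bases before the annotated start of the 4 mitotic genes described by library above, from RefSeq on GRCm38.p6, shown because these genes moved together. Capitals mark the CCAAT box (letters CCAAT, bound by NF-Y) and the cell cycle homology region (TTTGAA or TTCGAA, the element that MuvB complexes recognise), on either strand. Of the 4 sequences, those of Mki67 and Cdc20 hold both motifs, and those of Cenpf and Aspm hold CCAAT boxes only.
Mki67 (chr7:135716380-135716579, minus strand): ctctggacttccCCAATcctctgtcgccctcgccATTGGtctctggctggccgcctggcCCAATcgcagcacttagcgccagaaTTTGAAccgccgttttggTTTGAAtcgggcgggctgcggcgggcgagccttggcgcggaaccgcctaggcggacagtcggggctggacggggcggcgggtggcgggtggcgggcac
Cenpf (chr1:189688087-189688286, minus strand): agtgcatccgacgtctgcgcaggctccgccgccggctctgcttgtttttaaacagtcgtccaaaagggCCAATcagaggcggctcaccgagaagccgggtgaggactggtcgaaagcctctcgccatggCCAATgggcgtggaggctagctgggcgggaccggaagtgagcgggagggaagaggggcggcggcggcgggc
Cdc20 (chr4:118437344-118437543, minus strand): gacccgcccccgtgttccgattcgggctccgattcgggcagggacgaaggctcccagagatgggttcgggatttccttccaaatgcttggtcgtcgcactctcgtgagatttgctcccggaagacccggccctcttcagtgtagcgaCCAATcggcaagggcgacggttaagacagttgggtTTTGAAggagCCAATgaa
Aspm (chr1:139454573-139454772, plus strand): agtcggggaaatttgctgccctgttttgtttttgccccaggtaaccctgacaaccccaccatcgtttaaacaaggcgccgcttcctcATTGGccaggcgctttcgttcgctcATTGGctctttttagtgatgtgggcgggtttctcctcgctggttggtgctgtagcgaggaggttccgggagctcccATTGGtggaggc
In the windows from 250 bases before to 50 after the start, 74.5% of the 55 windows of mitosis and spindle genes held a CCAAT box, against 37.7% of the 13884 windows of all tested genes with an entry. A cell cycle homology region was found in 74.5% of the mitotic windows and in 14.2% of all windows; these shares are for each motif alone. Windows exist for 50 of the 61 mitotic genes and for 10869 of the genes tested. A match of letters is a description and not evidence of binding.

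DNA replication genes differed in the same direction by smaller amounts. Of 62 genes of replication and nucleotide supply, 60 were higher and 0 lower. Their median log2 fold change was 0.74, and 10 reached 2-fold. The origin recognition subunit Orc1 and the licensing factor Cdt1 were the members not called, with log2 fold changes of 0.35 and 0.42; both were singled out after their values were seen. Cdt1 was called without regular medium replicate 4 (edgeR adjusted p = 0.00737). The sum of the list was 1337 to 1618 CPM in regular medium and 2365 to 2563 in naive CM. Thymidine kinase Tk1 was at 22.3, 15.8, 16.2 and 17.5 CPM in regular medium and 71.5, 75.5, 79.3 and 77.7 in naive CM. Its 4.22-fold difference was the largest of the list and the libraries did not overlap (edgeR adjusted p = 6.06e-07). Uhrf1, which recruits the maintenance DNA methyltransferase, was at 37.1, 28.3, 32.3 and 35.2 CPM against 65.2, 73.1, 80.8 and 70.8 and was 2.18-fold higher. The histone chaperone Asf1b was 2.25-fold higher and the recombination helicase Rad54l 2.21-fold higher. Mcm5, a subunit of the replicative helicase chosen for its upstream sequence after its values were seen, was 2.12-fold higher, at 67.1 ± 5.92 against 31.7 ± 3.94 CPM.

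The sequence before Mcm5 is shown because overlapping E2F sites lie 153 and 149 bases before its start and CCAAT boxes at 77 and 22. Capitals mark E2F sites (TTT, then a pair of C or G, then CGC) and CCAAT boxes on either strand.
Mcm5 (chr8:75109309-75109508, plus strand): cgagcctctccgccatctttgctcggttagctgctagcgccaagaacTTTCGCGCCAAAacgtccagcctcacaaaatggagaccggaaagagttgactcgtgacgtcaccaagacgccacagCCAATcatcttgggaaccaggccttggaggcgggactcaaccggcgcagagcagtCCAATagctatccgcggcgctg
E2F sites were found in 37.3% of the 59 replication windows and in 3.77% of all windows.

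Histone transcripts were less uniform. In this list, which also holds the chromatin proteins Hmgb2 and Hmgn2, 13 of 27 genes were higher and 0 lower. Linker histone Hist1h1a was at 6.46, 3.84, 3 and 5.64 CPM in regular medium and 28.8, 30.4, 32.2 and 27.1 in naive CM, a 6.17-fold difference without overlap, and Hist1h1b was 3.99-fold higher. Without regular medium replicate 4 the count was 26 higher and 0 lower of the tested members. Replication-dependent histone messages lack a poly(A) tail and belong to clusters of near-identical genes, so poly(A) libraries capture them unevenly and reads can be split between copies. Among the 10 largest rises that reached 5 CPM without overlap of the libraries, predicted genes left out, were also the helicase Pif1 (5.83-fold), the guanine nucleotide exchange factor Arhgef39 (6.9-fold) and the spindle orientation protein Sapcd2 (4.81-fold). 

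**Figure D2:**
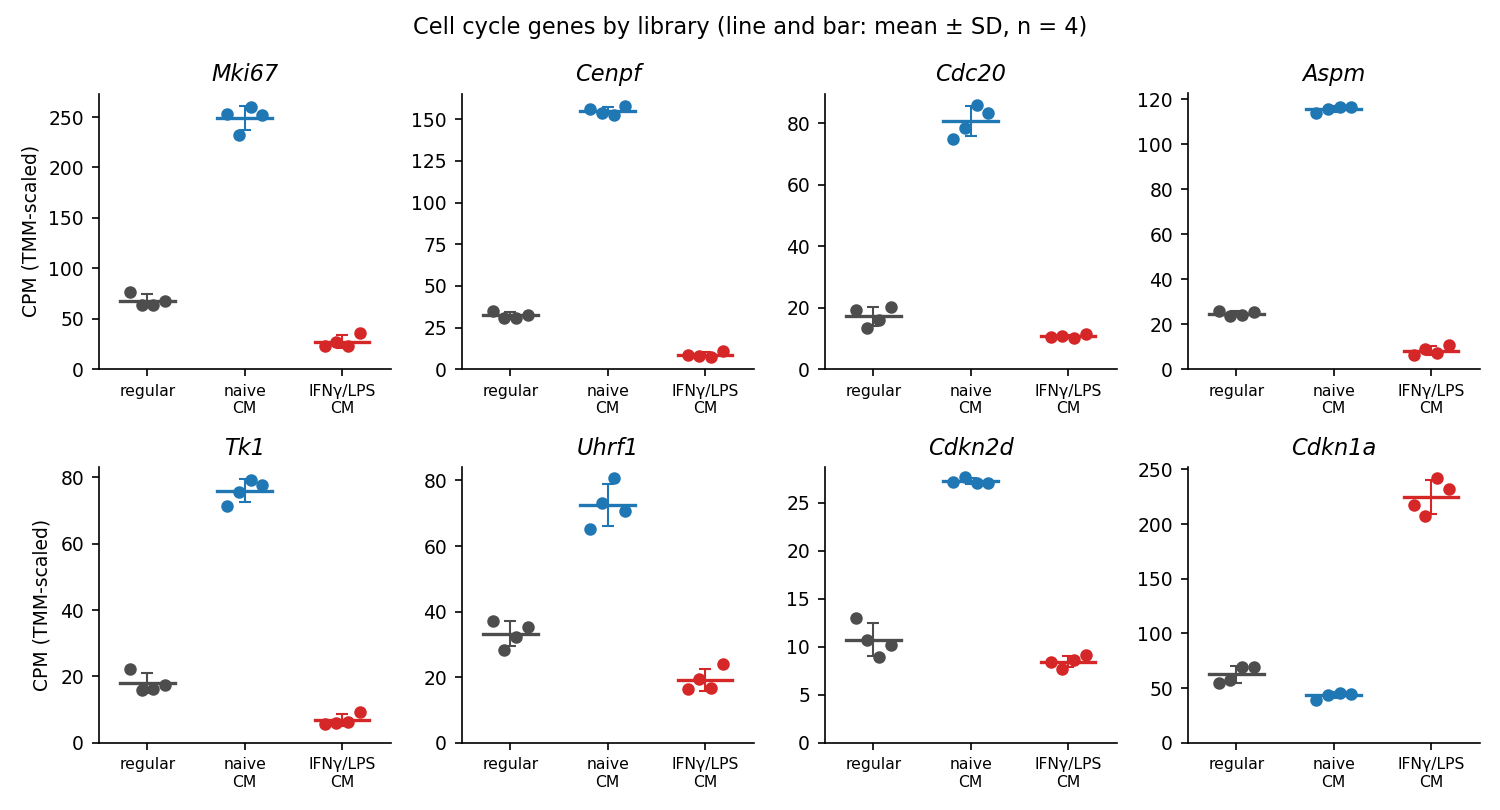
Level in CPM (linear axis from 0) of 8 cell cycle genes in each library of regular medium, naive CM and IFNγ/LPS CM, with line and bar for mean ± SD (n = 4). Mki67, Cenpf, Cdc20, Aspm, Tk1, Uhrf1 and Cdkn2d are highest in all 4 naive CM libraries, and Cdkn1a is lowest there.

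Among regulators of cell cycle entry more members were lower than higher, and CDK inhibitors were found in both directions. Of 35 CDK inhibitors, D cyclins, retinoblastoma proteins and p53 targets, 6 were higher and 17 lower. The p53 target Cdkn1a, which encodes the CDK inhibitor p21, was at 54.9, 57, 68.9 and 69.4 CPM in regular medium and 39.4, 43.4, 45.7 and 44.9 in naive CM. Its libraries did not overlap and it was 1.44-fold lower (edgeR adjusted p = 2.27e-04). Cdkn2b (p15) was 1.54-fold lower, the apoptosis gene Pmaip1 2-fold lower and the p53 target Perp 1.59-fold lower. Cdkn2d (p19), another CDK inhibitor, went the other way, at 13, 10.7, 8.93 and 10.2 CPM against 27.2, 27.7, 27 and 27, and was 2.53-fold higher. The retinoblastoma relative Rbl1 was 2.37-fold higher. Cdkn1b, which encodes the CDK inhibitor p27, was at 130.0 ± 6.22 and 135 ± 3.64 CPM and its libraries overlapped (edgeR adjusted p = 0.292). Cyclin D1 (Ccnd1), a sensor of growth factor signals, was at 1126 ± 126 and 1245 ± 75.9 CPM with an adjusted p of 0.119 by the same edgeR test, and 0.0281 without regular medium replicate 4.

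Genes of ribosome production did not follow the cell cycle genes. Of 50 ribosome biogenesis genes and MYC targets, 1 was higher and 17 were lower, with a median of -0.14. The nucleolar proteins Ncl and Gnl3 were 1.31-fold and 1.38-fold lower. Myc itself was at 16.7 ± 4.92 and 13.5 ± 0.809 CPM (edgeR adjusted p = 0.247). Of 56 ribosomal protein genes, 5 were higher and 8 lower, with 8 higher without regular medium replicate 4 and 3 without regular medium replicate 2. Of 31 genes of FOXO, quiescence and nutrient withdrawal, 7 were higher and 13 lower, and of 39 immediate early and MAPK feedback genes 3 were higher and 10 lower. The insulin receptor substrate Irs2 and the fasting-induced factor Klf15, of the first of these lists, were 1.46-fold and 1.38-fold lower. In that list 2 members changed at least 2-fold, and both were higher. These were dermatopontin (Dpt), by 3.98-fold, and Gas7, by 2.29-fold at 2.34 against 1.00 CPM. Egr1, an immediate early transcription factor, was 1.53-fold lower, and Spry2, a feedback inhibitor of receptor tyrosine kinase signals, was at 66.1, 66.4, 68.6 and 69.4 CPM in regular medium and 48.2, 47.5, 45.9 and 46.3 in naive CM, 1.44-fold lower without overlap. Etv4, an ETS factor downstream of the same signals, was 1.43-fold higher.

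Genes of cholesterol and fatty acid synthesis were mostly higher in naive CM. Both pathways are under SREBP factors, of which SREBP2 is activated when sterols in the cell are low. Of 31 cholesterol synthesis genes and SREBP2 targets, 22 were higher and 1 lower (median 0.46), and of 26 fatty acid genes and SREBP1 targets, 16 were higher and 1 lower (median 0.31). Farnesyl diphosphate synthase Fdps was at 48, 42.4, 54.1 and 53.5 CPM in regular medium and 73.7, 99.1, 94.5 and 93.4 in naive CM. The 2 media did not overlap and Fdps was 1.83-fold higher (edgeR adjusted p = 1.36e-04). Mvd, Acat2 and Pmvk, enzymes of the same pathway, were 1.7-, 1.65- and 1.57-fold higher. Insig1, which holds SREBP in the endoplasmic reticulum and is itself a target, was at 285 ± 14.4 and 313 ± 13.8 CPM and missed the threshold (edgeR adjusted p = 0.0672, and 0.0422 without naive CM replicate 1).

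Among the fatty acid genes, stearoyl-CoA desaturase Scd1 was at 178, 177, 220.8 and 210.0 CPM in regular medium and 344, 381, 399 and 381 in naive CM. No library overlapped and the difference was 1.92-fold. The related desaturase Scd2 was 1.92-fold higher, the elongase Elovl6 1.88-fold and the acetyl-CoA synthetase Acss2 1.84-fold. Phospholipid transfer protein Pltp, which is also a target of the oxysterol receptor LXR, was the 1 member that was lower (1.24-fold). The LXR and lipid handling list was divided, with 7 of 29 higher and 6 lower: the cholesterol exporter Abca1 was 1.19-fold higher and the lipid chaperone Fabp4 1.89-fold higher.

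The sequence before Hmgcs1, which makes the first dedicated metabolite of sterol synthesis, is shown for its sterol response element (TCACNCCAC, bound by SREBP) 137 bases before the start, with CCAAT boxes also in capitals. Hmgcs1 was chosen after its values were seen, and was 1.37-fold higher at 165 ± 11.8 against 121 ± 5.23 CPM.
Hmgcs1 (chr13:119690151-119690350, plus strand): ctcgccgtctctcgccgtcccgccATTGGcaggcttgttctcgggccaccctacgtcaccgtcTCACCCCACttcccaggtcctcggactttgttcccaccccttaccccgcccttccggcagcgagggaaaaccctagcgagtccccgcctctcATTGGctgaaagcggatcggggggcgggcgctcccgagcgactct
A CCAAT box lay in 71.4% of the 28 windows of cholesterol genes. The sterol response element as spelled was in only 1 of these 28 windows (3.57%) and in 1.19% of all windows. A share that rests on 1 window cannot be read as an excess, and Hmgcs1 was shown because it holds the element.

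Several glycolytic enzymes were higher in naive CM, and hypoxia-induced genes were divided. Of 43 genes, 20 were higher and 9 lower (5 lower without naive CM replicate 2). Pyruvate kinase Pkm was at 932, 791, 967 and 892 CPM in regular medium and 1998, 1939.7, 2055 and 1929 in naive CM, 2.21-fold higher without overlap (edgeR adjusted p = 1.18e-11). Pgk1 and Gapdh, enzymes of the same pathway, were 2.17-fold and 1.89-fold higher, and the aldolase Aldoc was 1.9-fold higher at a low level. The hypoxia-induced gene Ndrg1 was 1.35-fold lower and the lactate transporter Slc16a1 1.22-fold lower. In IFNγ/LPS CM the levels of Pkm, Pgk1, Gapdh and Aldoc were higher still, with Pkm at 6334 ± 172 CPM. Of 42 nuclear genes of oxidative phosphorylation, 23 were higher and 0 lower, with a median of 0.17, and the largest difference stayed under 1.5-fold. Of 15 mitochondrially encoded genes, 1 was higher and 5 were lower. The mitochondrial ribosomal RNA mt-Rnr2 was at 15495 to 18641 CPM in regular medium and 11129 to 12203 in naive CM, 1.5-fold lower, and mt-Rnr1 was 1.63-fold lower. Without naive CM replicate 4 the mitochondrially encoded genes called lower numbered 2, and mt-Rnr1 was not among the calls (edgeR adjusted p = 0.0511).

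Among antioxidant and amino acid genes, too, more were higher than lower. Of 41 genes of NRF2, glutathione and redox control, 21 were higher and 3 lower. Gclc, the catalytic subunit of the rate-limiting enzyme of glutathione synthesis, was at 252, 238, 247 and 226 CPM in regular medium and 638, 589, 572 and 581 in naive CM. It was 2.47-fold higher, its libraries far apart (edgeR adjusted p = 1.45e-13). The quinone reductase Nqo1, a classic NRF2 target, was 2.51-fold higher, the pentose phosphate enzyme G6pdx 1.74-fold and the peroxidase Gpx7 1.57-fold. Haem oxygenase Hmox1, another NRF2 target, was 1.68-fold lower, at 28.7, 31.1, 36.7 and 30.4 CPM in naive CM and 38.3, 38.4, 75 and 63 in regular medium. That call was lost without naive CM replicate 1, 2 or 4 or regular medium replicate 4 (edgeR adjusted p = 0.0588 to 0.0665), and in a fit of only the 8 libraries compared (0.0776). Txnip, an inhibitor of thioredoxin, was 1.17-fold lower.

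Of 45 ATF4 targets and genes of amino acid supply, 19 were higher and 3 lower. The mitochondrial folate enzymes Aldh1l2, Mthfd1l and Mthfd2 were 2.48-, 1.76- and 1.74-fold higher. The cystine transporter Slc7a11 was at 5.77, 7.05, 14 and 13.6 CPM in regular medium and 16.3, 17.9, 20.7 and 18 in naive CM, 1.86-fold higher (edgeR adjusted p = 0.0243), a call lost without naive CM replicate 2, 3 or 4 or regular medium replicate 2 (edgeR adjusted p = 0.0524 to 0.0666) or in a fit of only the 8 libraries compared (0.0802). The lipoprotein receptor Vldlr was 1.55-fold lower. Of 33 genes of protein folding in the endoplasmic reticulum, 15 were higher and 3 lower. The collagen-modifying subunit P4hb and the chaperone Calr were 1.43-fold and 1.33-fold higher. Of 43 autophagy and lysosome genes, 9 were higher (20.9%, against 18.3% of all genes tested) and 12 lower (27.9%, against 16.4%). Cathepsin H (Ctsh) was 1.83-fold higher, while the lysosomal stress gene Gpnmb was 1.74-fold lower.

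**Figure D3:**
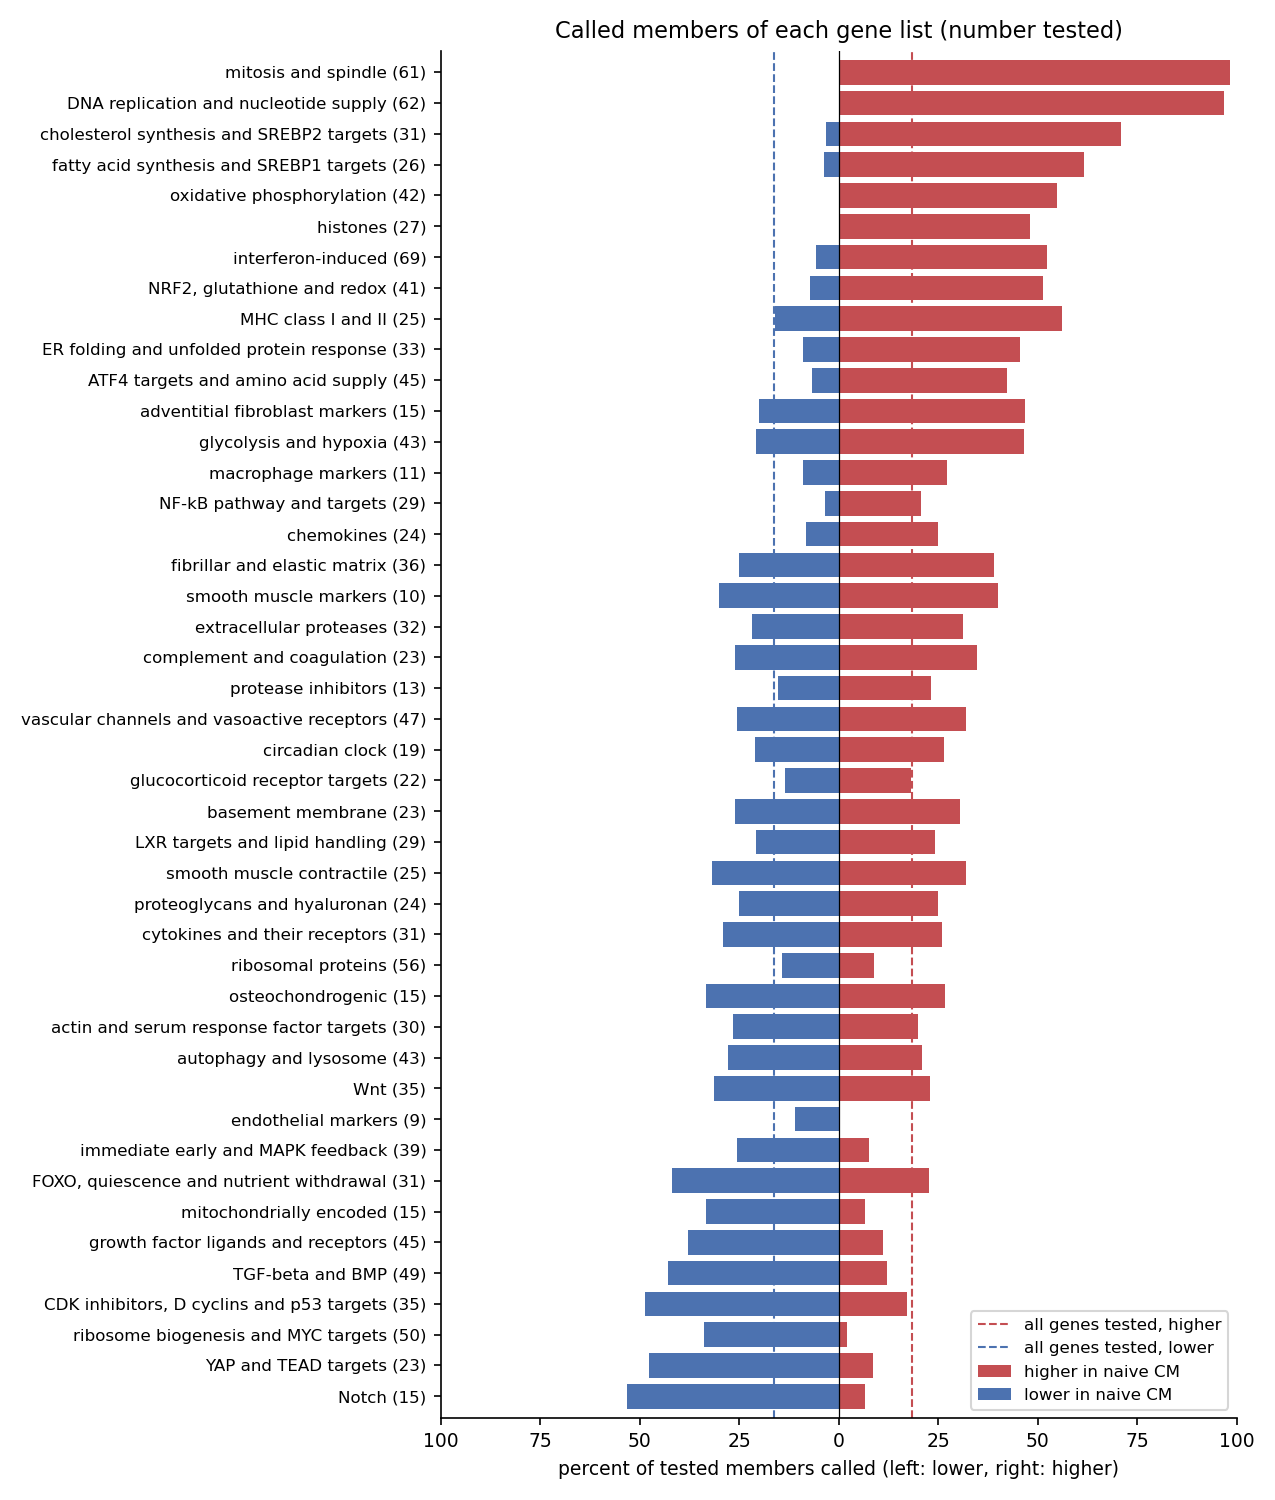
Share of the tested members of each gene list that was called higher (right of zero) or lower (left of zero) in naive CM, in percent of members tested, with dashed lines for the shares over all genes tested. Mitosis and replication genes are called higher nearly throughout, whereas all genes tested stand at 18.3% higher and 16.4% lower.

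Among interferon-induced genes, far more were higher than lower in naive CM, mostly by small amounts. Of 69 tested members, 36 were higher and 4 lower, with a median of 0.23. Ifi27l2a, a mitochondrial protein induced by interferon, was at 1.56, 1.42, 1.58 and 2.09 CPM in regular medium and 5.84, 5.5, 7.22 and 7.03 in naive CM. The media did not overlap and the difference was 3.85-fold. Ifitm3, which blocks viral entry, was at 58.9, 56.1, 57.8 and 54.9 CPM against 119, 116, 118 and 124, 2.09-fold higher. The ISG15-conjugating enzyme Ube2l6 was 1.88-fold higher and Oas2, an enzyme that senses viral RNA, 2.19-fold higher at about 1 CPM. Ifitm1 and Bst2, both antiviral membrane proteins, were 2.59-fold and 1.32-fold lower. In IFNγ/LPS CM most of these genes were far higher, with Ifitm3 at 1052 ± 87 CPM and Oas2 at 76.9 ± 0.668. Ifitm1 was an exception, at 0.626 ± 0.119 CPM. An interferon-stimulated response element (TTTCNNTTTC, either strand) lay in 46.6% of the 58 windows of interferon-induced genes and in 3.16% of all windows.

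Antigen presentation genes differed widely in level, and more were higher than lower. Of 25 MHC class I and II genes, 14 were higher and 4 lower, with a median of 0.27. These shares were 56% and 16%, against 18.3% and 16.4% of all genes tested. The class I light chain B2m was 1.33-fold lower, at 505 ± 26.3 against 669 ± 44.4 CPM, and the class I transactivator Nlrc5 was 1.78-fold lower at a level near 1 CPM. The peptide transporter Tap2 was 1.41-fold higher and the non-classical class I gene H2-M3 1.37-fold higher. H2-Ab1 and Cd74, of class II presentation, and Ciita were higher but averaged below 1 CPM in both media: H2-Ab1 had 20 and 93 counts over the 4 libraries of regular medium and of naive CM, the invariant chain Cd74 had 59 and 118, and the class II transactivator Ciita had 52 and 165. The class II peptide loading gene H2-DMb1 was 1.29-fold higher, at 6.81 ± 0.524 against 5.21 ± 0.512 CPM. H2-Ab1, Cd74 and Ciita were singled out after their values were seen, and H2-Ab1 was at 295 ± 20.4 CPM in IFNγ/LPS CM. MHC genes are similar to each other in sequence, so their reads can be split between copies.

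Among complement genes, C4b (chr17:34728380-34743882 on GRCm38) was among the 10 largest rises under the same limits. It was at 1.65, 1.64, 2.11 and 1.76 CPM in regular medium, 9.07, 8.75, 9.24 and 9.02 in naive CM, against 436 ± 12.6 in IFNγ/LPS CM. The naive CM libraries were all above the regular medium libraries, by 5.15-fold (log2 fold change of 2.36 with an SE of 0.0659, edgeR adjusted p = 2.06e-14). C4b has a near-identical neighbour, C4a, so its value is uncertain. The central component C3 was at 140.4, 135, 154 and 136 CPM against 260.3, 246, 242 and 242, 1.75-fold higher, factor B (Cfb) was 1.89-fold higher and the C3a receptor C3ar1 1.78-fold higher. Masp1, a protease of the lectin pathway, was 1.97-fold lower. Over the list, 8 of 23 complement and coagulation genes were higher and 6 lower. The genes named here are mostly rises, whereas only 10 of the 23 had a positive log2 fold change and the list median was -0.04. Added together, the list stood at 4019 to 4439 CPM in naive CM against 4965 to 5737 in regular medium, so its sum fell without overlap.

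Chemokine and cytokine genes were divided. The filter used all 12 libraries, so a gene such as Cxcl9, which had no count in either medium and was at 659.5 ± 81.6 CPM in IFNγ/LPS CM, was among those tested. Of 24 tested chemokine genes, 6 were higher and 2 lower. Cxcl15, a neutrophil attractant, was at 125, 136, 115 and 115 CPM in regular medium and 254, 264, 249.7 and 270.0 in naive CM, 2.11-fold higher, and Ccl9 was 2.27-fold higher. Cx3cl1 and Cxcl16, both made as membrane proteins, were 1.58-fold and 1.4-fold higher. Cxcl12, which retains leukocytes and progenitor cells, was at 1368, 1426, 1470.3 and 1486 CPM in regular medium and 939, 1003, 878 and 932 in naive CM, 1.53-fold lower. The monocyte attractant Ccl2 was at 1.59 ± 0.0657 and 1.71 ± 0.525 CPM (edgeR adjusted p = 0.404), whereas it stood at 4834 ± 169 CPM in IFNγ/LPS CM. 

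Of 31 cytokines and their receptors, 8 were higher and 9 lower. Il33, a nuclear alarmin, was at 13.7, 14.3, 11.5 and 12.5 CPM in regular medium, 32.6, 29.6, 31.2 and 31.7 in naive CM, against 0.764 ± 0.158 in IFNγ/LPS CM, and was 2.4-fold higher in naive CM than in regular medium. The oncostatin M receptor Osmr was 1.49-fold higher. Csf1, which encodes M-CSF, the factor added to the macrophages, was at 284, 266, 298 and 260.3 CPM in regular medium and 187, 189, 186 and 199 in naive CM, 1.46-fold lower without overlap. Il18 was 1.5-fold lower, and Il6 was at about 0.1 CPM in both media (edgeR adjusted p = 0.863). Of 29 genes of the NF-κB pathway, 6 were higher, 2 of them at least 2-fold, and 1 was lower. Log2 fold changes of the list ran from -0.44 to 3.33. The adhesion molecule Vcam1 was 1.4-fold higher, Tnfaip2 1.43-fold and the inducible regulator Nfkbiz 1.39-fold, while the feedback inhibitor Tnfaip3 was 1.34-fold lower. Icam1 was under 1 CPM in both media and was not called (edgeR adjusted p = 0.0792).

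Macrophage markers were looked for beside these immune genes, since the medium came from macrophages. Of 31 markers, 11 passed the filter, of which 3 were higher and 1 lower, and 8 had no count in any of the 8 libraries. Those without a count included Adgre1, C1qa, C1qb, C1qc, Fcgr1, Lyz1 and Clec4n. Ptprc had 3 counts in each medium. The sum of the markers was 37.8 to 39.3 CPM in regular medium, 41.0 to 46.6 in naive CM, against 927 to 1037 in IFNγ/LPS CM. The called members were the tetraspanin Cd53 (2.33-fold higher, at 7.34, 8.3, 9.53 and 7.71 CPM in naive CM against 3.23, 3.53, 3.92 and 3.47), the lipopolysaccharide co-receptor Cd14 (1.42-fold), the lysosomal protein Cd68 (1.53-fold) and, lower, the phagocytic receptor Mertk (1.38-fold). The M-CSF receptor Csf1r averaged 0.142 ± 0.0873 CPM in regular medium and 0.203 ± 0.0873 in naive CM.

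**Figure D4:**
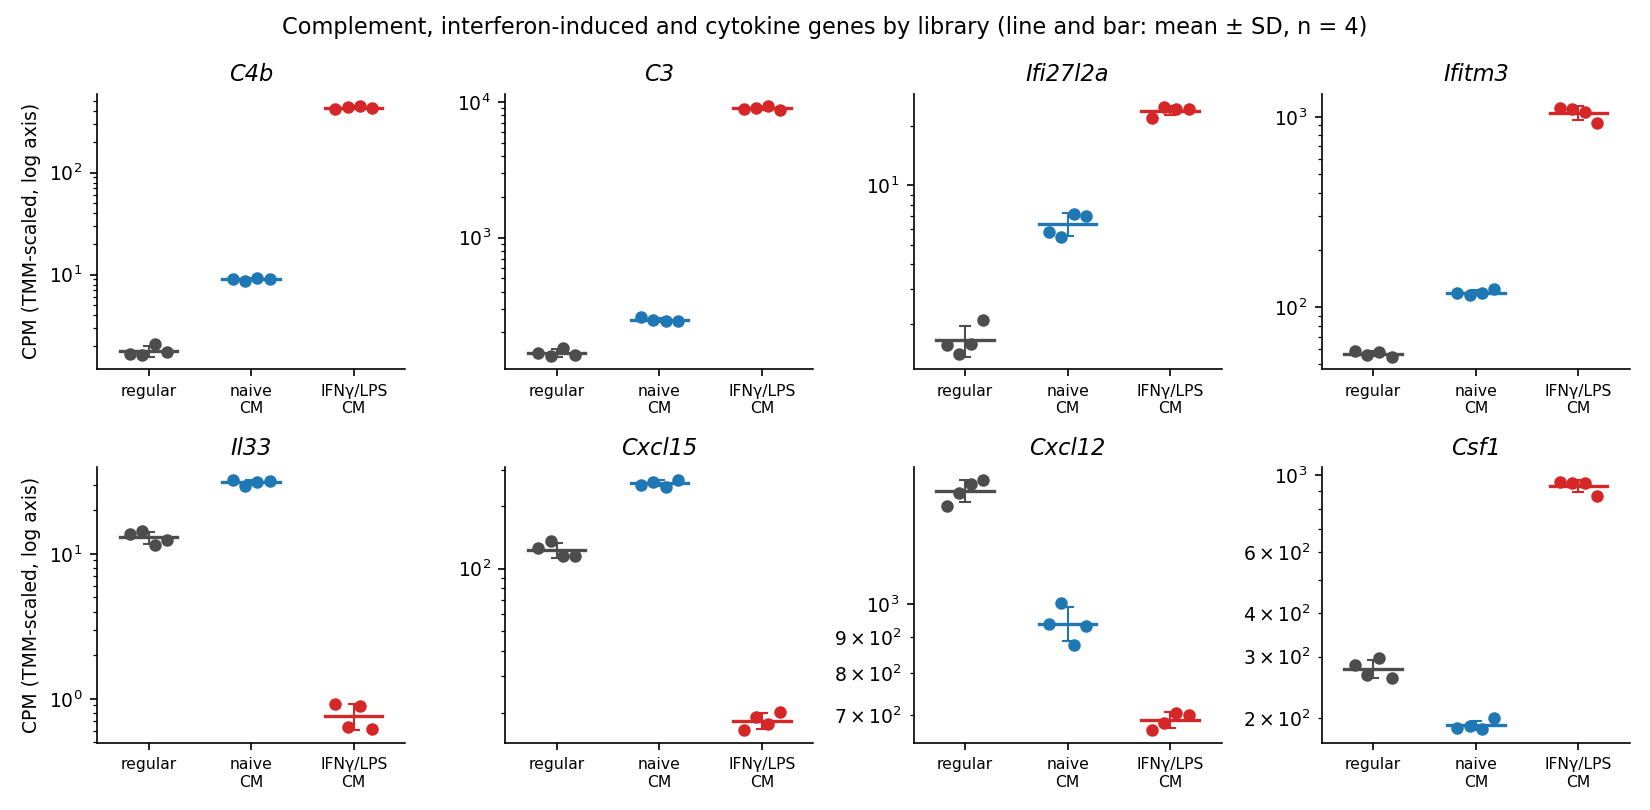
Level in CPM on a log axis of 8 complement, interferon-induced and cytokine genes in each library, with line and bar for mean ± SD (n = 4). Naive CM lies between the other media for C4b, C3, Ifi27l2a, Ifitm3 and Cxcl12, above both for Il33 and Cxcl15, and below both for Csf1.

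Contractile genes split evenly by count, with 8 of 25 higher and 8 lower, and the median log2 fold change was -0.11. At 2-fold or more, 0 were higher and 1 was lower. The summed level of the list was lower in naive CM, at 3532 to 3739 CPM against 3832 to 4157 in regular medium. Tagln, the actin-binding protein SM22, was at 48.4, 33.5, 22.2 and 22.4 CPM in regular medium and 11.1, 13, 8.79 and 10.2 in naive CM. Replicate 1 of regular medium was highest, the media did not overlap and Tagln was 2.92-fold lower (edgeR adjusted p = 8.11e-04). The thin filament regulator Cald1 was at 809.7, 825, 825 and 771 CPM against 469, 481, 402 and 462, 1.78-fold lower, and Acta2 was 1.27-fold lower at 220.2 ± 8.05 CPM. Myocd, which encodes myocardin, was 1.24-fold lower, close to the threshold (edgeR adjusted p = 0.0438), and was not called without naive CM replicate 1, 2 or 3 or regular medium replicate 1 or 3 (edgeR adjusted p = 0.0633 to 0.153). The actin nucleator Lmod1 was higher, at 7.42, 7.86, 5.87 and 7.02 CPM against 5.36, 4.49, 4.15 and 4.5, as were Smtn (1.44-fold), Synpo2 (1.38-fold) and the integrin Itga8 (1.37-fold). Itga8 was not called without naive CM replicate 1, 2 or 4 or regular medium replicate 3 or 4 (edgeR adjusted p = 0.0544 to 0.0955). Myh11 and Cnn1 were at 0.716 ± 0.18 and 0.276 ± 0.0553 CPM in regular medium and were not called. Of 10 tested smooth muscle marker genes, 4 were higher and 3 lower.

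YAP/TEAD targets contained more falls than rises, while actin and serum response factor targets were divided. Of 30 actin and serum response factor targets, 6 were higher and 8 lower, and 16 had a positive log2 fold change. The actin-binding proteins Capg and Cfl1 were 1.22-fold and 1.18-fold higher. Fhl2, a LIM protein of focal adhesions, was at 10.6, 10.7, 9.36 and 10.5 CPM in regular medium and 6.11, 7.07, 4.88 and 5.78 in naive CM, 1.72-fold lower without overlap. Zyx and Vcl, of the same adhesions, were 1.45-fold and 1.32-fold lower, and the muscle LIM protein Fhl1 was 1.37-fold lower. Of 23 YAP and TEAD targets, 2 were higher and 11 lower, with a median of -0.28. The matricellular target Ccn2 was at 1055, 1184, 1168 and 1278 CPM in regular medium and 857, 895, 789 and 834 in naive CM, 1.39-fold lower. The pathway inhibitors Lats2 and Amotl2, also targets, were 1.39-fold and 1.41-fold lower, while Ccn1 was 1.37-fold higher.

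The sequences before the 2 annotated starts of Fhl2 are shown because each holds a CArG box, the site of serum response factor (CC, 6 bases of A or T, GG), in capitals.
Fhl2 (chr1:43196762-43196961, minus strand): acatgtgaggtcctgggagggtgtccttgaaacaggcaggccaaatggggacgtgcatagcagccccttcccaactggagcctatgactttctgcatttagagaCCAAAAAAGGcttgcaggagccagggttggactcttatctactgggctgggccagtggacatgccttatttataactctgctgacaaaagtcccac
Fhl2 (chr1:43163962-43164161, minus strand): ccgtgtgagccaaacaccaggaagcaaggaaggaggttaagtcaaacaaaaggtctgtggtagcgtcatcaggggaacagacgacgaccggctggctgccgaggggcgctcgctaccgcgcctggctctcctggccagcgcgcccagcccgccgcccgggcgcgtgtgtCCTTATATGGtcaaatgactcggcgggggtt
CArG boxes lay in 22.2% of the 36 windows of actin and serum response factor targets, in 20.8% of the 24 windows of contractile genes and in 1.28% of all windows. A match of letters is again a description only.

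Matrix genes moved in both directions. Of 36 fibrillar and elastic matrix genes, 14 were higher and 9 lower. Osteopontin (Spp1), a secreted phosphoprotein of dedifferentiated SMCs, was at 20.4, 15.3, 24.1 and 24.6 CPM in regular medium and 84.9, 98.7, 104.3 and 89.2 in naive CM, 4.5-fold higher without overlap (edgeR adjusted p = 1.06e-06). The collagen gene Col3a1 was at 202, 183, 194 and 178 CPM against 329.9, 349, 300.1 and 337, 1.74-fold higher. The calcification inhibitor Mgp and the fibulin Fbln1 were 1.65-fold and 1.93-fold higher, and Col1a1 was at 447 ± 148 and 455 ± 46.3 CPM with overlapping libraries (edgeR adjusted p = 0.946). 

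Elastin and some of the proteins that build elastic fibres were lower. Elastin (Eln) was at 204, 204, 255 and 265 CPM in regular medium and 152, 174, 150.1 and 169 in naive CM, 1.44-fold lower. Fbln5, which assembles elastin on microfibrils, was at 1199, 1242, 1288 and 1149 CPM against 703, 729.6, 695 and 726, 1.71-fold lower, and the crosslinking enzyme Lox was 1.4-fold lower. Other elastic fibre genes, picked after their values were seen, were higher: Efemp2 (fibulin 4) by 1.17-fold and the microfibril protein Emilin1 by 1.42-fold. Tenascin C (Tnc) and fibronectin (Fn1) were 2.09-fold and 1.35-fold lower. Of 23 basement membrane genes, 7 were higher, among them the laminin chains Lama4 (1.47-fold) and Lamb1 (1.32-fold), and 6 lower, among them Col4a3 (1.52-fold) and nidogen Nid1 (1.42-fold). Proteoglycan and hyaluronan genes counted 6 higher and 6 lower of 24. The small leucine-rich proteoglycans Ogn and Fmod were 1.61-fold and 1.53-fold lower, Lum of the same family was 1.44-fold higher, and the hyaluronan-binding Tnfaip6 was 2.4-fold higher.

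Among 32 extracellular proteases, 10 were higher (31.2%, against 18.3% of all genes tested) and 7 lower (21.9%, against 16.4%). Stromelysin Mmp3 was at 547, 556, 517 and 526 CPM in regular medium, 1129, 1123, 1110.5 and 1095 in naive CM, against 21538 ± 547 in IFNγ/LPS CM. It was 2.08-fold higher in naive CM without overlap (edgeR adjusted p = 1.05e-12). The metalloproteases Adam12 and Adamts4 were 2.76-fold and 2.05-fold higher, both from low levels. Of 13 protease inhibitors, 3 were higher (23.1%) and 2 lower (15.4%), near the shares of all genes tested (18.3% and 16.4%). Timp1 was at 36.4, 29.1, 31.1 and 30.4 CPM against 61.9, 70.3, 70.3 and 64.8, 2.1-fold higher, the serpin Serpina3n was 3.05-fold higher and Timp3 1.13-fold lower.

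**Figure D5:**
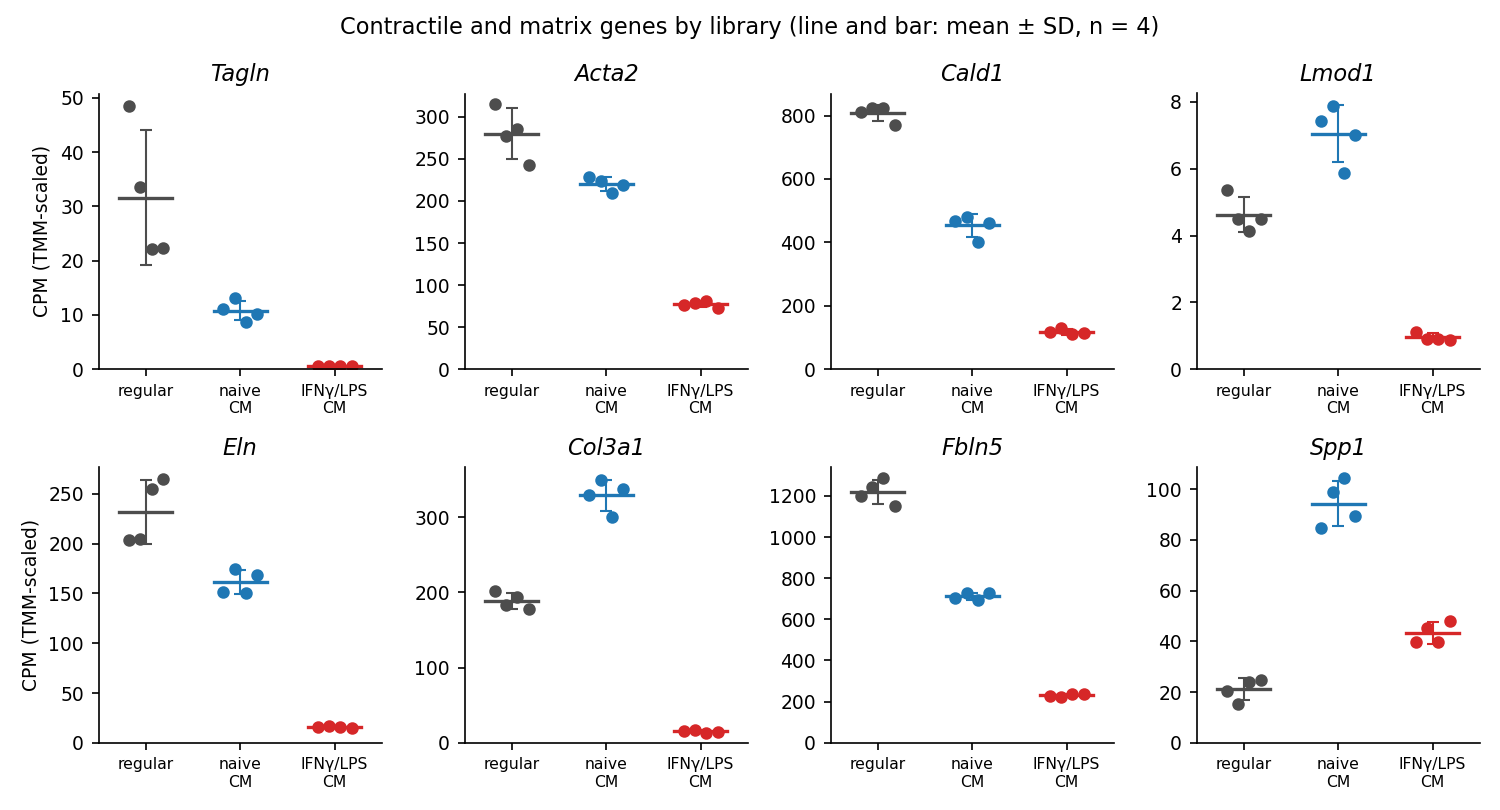
Level in CPM (linear axis from 0) of 8 contractile and matrix genes in each library, with line and bar for mean ± SD (n = 4). Tagln, Acta2, Cald1, Eln and Fbln5 are lower in naive CM than in regular medium and lowest in IFNγ/LPS CM, while Lmod1, Col3a1 and Spp1 are highest in naive CM.

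In the growth factor, TGF-β, Notch and Wnt lists more genes were lower than higher. Of 45 growth factor ligands and receptors, 5 were higher and 17 lower. Fgf18 was at 40.4, 38.3, 41.6 and 37.4 CPM in regular medium and 20.4, 18.8, 17.6 and 19.6 in naive CM, 2.06-fold lower, and Nrg1, a ligand of ErbB receptors, was 1.7-fold lower. Igf1 was at 61.5, 70.6, 67.4 and 69.4 CPM against 40.4, 47.8, 37.1 and 43.6, 1.59-fold lower (edgeR adjusted p = 0.0146). Its binding proteins diverged: Igfbp2 was 1.99-fold lower and Igfbp4 3.97-fold higher, at 9.77, 10, 11 and 11.3 CPM in naive CM against 2.47, 3.01, 1.75 and 3.22. The stem cell factor receptor Kit was 2.08-fold lower at a low level. The PDGF receptor Pdgfrb, a driver of SMC growth, was at 507 ± 19.6 and 476 ± 7.87 CPM (edgeR adjusted p = 0.0708, and 0.0303 without regular medium replicate 4).

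Of 49 TGF-β and BMP genes, 6 were higher and 21 lower. The activin subunit Inhbb was 1.5-fold lower, and the BMP antagonist Grem1 was 1.38-fold higher. Tgfb1 was at 6.69 ± 2.16 and 6.36 ± 0.661 CPM and was not called (edgeR adjusted p = 0.83). Of 15 Notch genes, 1 was higher and 8 were lower. Notch3, the main Notch receptor of SMCs, was at 12.3, 12.2, 16.7 and 20.7 CPM in regular medium and 7.05, 7.41, 10.2 and 7.27 in naive CM, 1.95-fold lower. Its ligands Jag1 and Jag2 were 1.35-fold and 2.11-fold lower, and the target Hes1 was 1.34-fold lower. Of 35 Wnt genes, 8 were higher and 11 lower, with the secreted antagonists Wif1 4-fold and Frzb 1.66-fold higher and Sfrp4 1.54-fold lower.

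Vasoactive genes were divided, 15 of 47 higher and 12 lower. Kcnj8 and Abcc9 encode the pore and the regulatory subunit of the ATP-sensitive potassium channel of SMCs and pericytes. Kcnj8 was at 3.11, 2.73, 1.94 and 3.45 CPM in regular medium and 7.88, 8.51, 8.34 and 8.31 in naive CM, 2.91-fold higher, and Abcc9 was at 3.57, 3.23, 2.93 and 3.51 CPM against 9, 9.17, 9.47 and 9.49, 2.79-fold higher. Both were below 3 CPM in IFNγ/LPS CM. Rgs5, a G-protein regulator also known as a pericyte marker, was 2.58-fold higher. The vasoconstrictor endothelin (Edn1) was 2.05-fold lower and the potassium channel Kcnd3 2.35-fold lower. 

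Markers of other vessel cells were examined as well. Of 9 tested endothelial markers, 0 were higher and 1 was lower. Of 15 adventitial fibroblast markers, 7 were higher and 3 lower. The stem cell antigen Ly6a was at 69.1, 65.3, 70.1 and 73.8 CPM in regular medium and 214.6, 204, 226 and 216.5 in naive CM, 3.09-fold higher, dermatopontin (Dpt) was 3.98-fold higher and Cd34 2.15-fold higher. Smoc2, a matricellular protein, was at 109, 112, 107 and 99.7 CPM against 29, 32, 24.3 and 31.6, 3.65-fold lower. Whether the mixture of cells differed between the media was not tested. Clock genes counted 5 higher and 4 lower of 19: the clock output gene Dbp was 1.79-fold higher, Per2 and Per3 were 1.33-fold and 1.3-fold higher, and Arntl, which encodes the activator BMAL1, was 1.3-fold lower. The osteochondrogenic list counted 4 higher and 5 lower of 15 (2 lower without naive CM replicate 3), and the glucocorticoid list 4 higher and 3 lower of 22 (7 higher without regular medium replicate 4). Called shares were 26.3% higher and 21.1% lower for the clock list and 26.7% and 33.3% for the osteochondrogenic list. The glucocorticoid list, at 18.2% and 13.6%, was near all genes tested, at 18.3% and 16.4%.

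The largest differences of single genes lay partly outside the lists. Among genes that reached 5 CPM, had no overlap between the media and were not predicted genes, the largest rises were Sprr2a3 (7.94-fold) and Sprr2a2 (7.43-fold), small proline-rich proteins of the epidermal barrier. Sprr2a2 (chr3:92215920-92256724 on GRCm38) was at 37.7, 34.9, 35.6 and 41.3 CPM in regular medium, 289, 260.1, 287 and 275 in naive CM, against 13.7 ± 1.13 in IFNγ/LPS CM. These genes are near-identical copies, so the share of each is uncertain, while both moved the same way. The neuropeptide receptor Npy4r was 6.27-fold higher, at 11.1 ± 2.61 against 1.79 ± 0.582 CPM, and Tnfaip8l1 was 4.97-fold higher. Of the abundant genes, the aldehyde dehydrogenase Aldh3a1 was at 991, 885, 1057 and 952 CPM in regular medium and 1681, 1584, 1644 and 1564 in naive CM, 1.67-fold higher without overlap. The galectin Lgals1, the serpin Serpinb6b and the tubulin Tuba1b were 1.61-, 1.63- and 1.53-fold higher. Among the falls, Lypd1, a membrane-anchored Ly6 family protein, was at 5.51, 6.02, 6.56 and 5.87 CPM in regular medium and 1.54, 1.57, 1.44 and 1.47 in naive CM, 3.95-fold lower. Kank4, an adhesion-associated ankyrin repeat protein, was 3.38-fold lower and the membrane protein Xkr4 2.77-fold lower. Colec10, a collagen-like lectin, Cib3 and Lancl3 were 2.54-, 2.42- and 2.22-fold lower. The largest fall by fold, of Fam177a, rested on 1 library: it was at 3.83, 3.28, 7.31 and 152 CPM in regular medium and 0.686, 0, 1.06 and 1.64 in naive CM. Without regular medium replicate 4 its log2 fold change was -2.50 instead of -5.65 and it was no longer called (edgeR adjusted p = 0.0803). Leaving out any 1 naive CM library also ended the call (edgeR adjusted p = 0.0536 to 0.0668).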

How the data were processed

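RNA of 12 libraries was sequenced as stranded poly(A) libraries in paired reads on a NovaSeq X Plus, per the labels' protocols. The authors deposited estimated counts (expected counts) per gene as whole numbers, made with Salmon 1.10.1 on mm10, per the submitters' processing notes. Not given in the sources used here are the annotation release, the use of strand, the rounding and how transcripts became genes. Salmon divides reads shared by similar genes by a model, so near-identical copies are uncertain, as are overlapping genes. Of 55822 identifiers, 51344 (92%) matched a GENCODE M21 symbol on GRCm38, the same build as mm10. Identifiers with no match took 3.68 to 5.86% of counts.

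Columns were joined to sample titles by name, reading M0 as naive, the usual name of that state, which the labels do not spell out; every direction rests on that reading. Counts were filtered with filterByExpr, scaled by TMM and tested in R 4.3.3 by the robust two-sided quasi-likelihood F-test of edgeR 4.0.16. The model held all 12 libraries (9 residual degrees of freedom), with Benjamini-Hochberg adjustment over all 16140 genes and a threshold of 0.05. A gene is called where it passes that threshold. Fold changes are edgeR's, their SE was approximated as the absolute log2 value divided by the root of F, and CPM are per 1000000 TMM-scaled counts. Salmon's sampling variance is not in these tests. Data of 15845 genes were simulated from the fitted spread, with 67, 67 and 66 genes changed 1.5-, 2- and 4-fold. The changed genes were at 1 CPM or more in regular medium, and the others were set equal in the 2 media. Of the 1.5-, 2- and 4-fold changes, 80.6%, 97.0% and 100% were recovered, with 10 false calls. In the real comparison 34.7% of genes were called and some named genes lay under 1 CPM, so these rates need not hold for it. Totals averaged 46759268 ± 14222466 (SD, n = 4) counts in regular medium and 45690380 ± 12462945 in naive CM.

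Libraries of the same number were not taken as paired: their deviations from the group means correlated at -0.0637 to 0.0534 over 4 pairs, none above 0.1. No library duplicated another. Promoter windows and printed sequences come from RefSeq on GRCm38.p6. The choice of this comparison, its 44 gene lists and the naming rule was made with earlier results of these data known, and list counts have no test of their own. Named were the 10 largest rises and falls whose higher group reached 5 CPM, whose libraries did not overlap and whose symbol is no predicted gene. From each list the rule took up to 4 called members that followed the main direction and up to 2 against it, with at least 1 CPM. It also took a fixed set of genes whatever their result, and the 10 most abundant called genes with at least 1.5-fold change. The text describes part of the genes so named, and some are not reported here. Alternatives were DESeq2 1.42.0 size factors or library totals for TMM, no filter or a stricter one (1 CPM in 4 libraries), the DESeq2 Wald test, limma-voom (limma 3.58.1), a fit of the 8 libraries, a replicate block, and leaving out each library.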

Additional observations from a re-analysis of the deposited data

Results flagged for a closer look

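In 402 pairs of a gene named above and a medium, 19 (4.73%) had 1 library whose gap to the nearest of the other 3, divided by the range, was above Dixon's 95% critical value for 4 samples, where chance gives about 5%. Of these, 3 were in regular medium replicate 4. Fam177a stood at 152 CPM there against 3.28 to 7.31 in the other regular medium libraries, Tap2 at 35.7 against 25.7 to 27.3, and Kit at 2.21 against 2.13 to 2.14.

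In the other regular medium libraries, Acat2 was low in replicate 2 (30.6 CPM against 35.3 to 36.2), as was Fbln1 (4.71 against 5.54 to 5.68). In replicate 3, Fabp4 was low (1.42 against 2.15 to 2.25) and Col4a3 high (284 against 230 to 235). Vcam1 was low in replicate 1 (460 against 492 to 496).

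Of the naive CM libraries, replicate 3 was outlying for 6 genes. It was low for Cdkn1b (130 CPM against 137 to 138), Il18 (4.94 against 5.42 to 5.45), Ogn (566 against 674 to 687), Grem1 (292 against 313 to 315) and Calr (930 against 970 to 977), and high for Notch3 (10.2 against 7.05 to 7.41). Replicate 1 was low for the SREBP target Scd2 (863 against 992 to 1010) and for Lgals1 (1430 against 1540 to 1560), and high for Kcnd3 (1.27 against 0.906 to 0.966). Replicate 2 was high for Pmaip1 (15.1 against 14 to 14.2) and Pmvk (20.7 against 18.4 to 18.7).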

How the results depend on the processing

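Of 201 named genes, 186 kept their direction and their side of the threshold in all 16 alternatives, 15 changed in at least 1 and 3 reversed, none of the reversals in a called gene. Many of the 201 were named because they were called without overlap of the libraries, so part of this stability was set by the naming rule. Over the libraries left out in turn, Il6 ran from -0.634 to 0.495, Col1a1 from -0.108 to 0.244 and Tgfb1 from -0.199 to 0.162 in log2 fold change. Il6 reversed to -0.63 without naive CM replicate 2 and -0.24 without regular medium replicate 1. Col1a1 reversed to -0.04 without naive CM replicate 3, -0.11 without regular medium replicate 1 and -0.09 without regular medium replicate 2. Tgfb1 reversed to 0.012 with limma-voom and 0.16 without regular medium replicate 4. Genes called numbered 5594, and 5180 to 5841 in the alternatives that kept all libraries. Leaving out single libraries gave 4683 to 5624 calls, 2544 to 3008 higher and 2139 to 2732 lower. It gave 594 to 658 genes at 2-fold or more, 436 to 503 higher and 155 to 181 lower. Genes at least 2-fold lower numbered 84 under the stricter filter, which removes low genes, instead of 153. With the replicate number as a block, 5780 genes were called, of which 5456 were among the 5594. In that fit Ccnd1 and Insig1 were called (edgeR adjusted p = 0.0225 and 0.0236) and Itga8 was not (0.056). The labels do not say whether libraries of the same number are paired. With each of the other alternatives at least 88.4% of the 5594 genes were shared when all libraries were kept. Leaving out single libraries kept from 82.5% of them (without naive CM replicate 4) to 91% (without regular medium replicate 1). Among the lists, members called higher went from 13 to 26 of 27 histones and from 15 to 11 in the ER folding list without regular medium replicate 4, from 19 to 14 in the ATF4 list without naive CM replicate 4 and to 15 without regular medium replicate 1. In the fit of only the 8 libraries compared, members called higher went from 6 to 3 in the NF-κB list, and members called lower from 9 to 4 in the glycolysis list and from 3 to 1 in the NRF2 list. Members called lower fell from 3 to 1 in the NRF2 list and from 1 to 0 in the cholesterol list without naive CM replicate 1, and rose from 1 to 3 in the NF-κB list and from 3 to 5 in the ATF4 list without regular medium replicate 2. Cd68 and Fam177a were not called by limma-voom (adjusted p = 0.0883 and 0.178), Fam177a was not called in the fit of the 8 libraries (edgeR adjusted p = 0.0721), and Bst2 and Myocd were not called without a filter (edgeR adjusted p = 0.0611 and 0.0894). Named genes that averaged under 1 CPM in both media, among them Il6, Icam1, Cnn1, Csf1r and Myh11, rest on few counts.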
